A study of Mus musculus with 4 samples.

Results

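The genes described here encode tubulins, kinesins, cytoplasmic dyneins and the adaptors that join these motors to cargo. They were taken from a ChIP-seq peak table of RREB1-3V5 in mouse cerebellum, as every row whose gene name began with Tuba, Tubb, Tubg, Kif, Klc, Dync, Dynl, Dctn, Bicd or Hook. The rule found 18 genes with a listed peak, of 100 protein-coding mouse genes with these prefixes and of 1933 rows in the table. A V5 antibody was used to precipitate chromatin from whole cerebella of Tg(PCP2-Rreb1/3V5)20/J mice at 3 weeks of age, a line made in C57BL/6J zygotes, which gave 2 ChIP libraries (a female and a male) beside 2 Input libraries of the same genotype, age and sexes. The transgene carried the neuronal Rreb1 V7 cDNA with 3 V5 tags under the PCP2 promoter, which is active in Purkinje cells, and ChIP and Input samples alike carried it, with no sample of another genotype. The lysate held all cell types of the cerebellum.

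Peaks of both ChIP libraries had been merged by the authors into 1 table that gives a position, a kind of region, the nearest transcription start and the distance from it. It holds no read count, peak height, width or library. So neither depth nor agreement of the 2 replicates could be read from it, and no test of the ChIP against Input was run again. The intervals given with shares are Wilson 95% intervals that cover counting error only. Each gene appears once, while peaks are numbered to 3043 with 1110 numbers absent, so a gene could have more peaks than its row shows. Marker lists, chosen with earlier results of these data known, were used to compare the table with the labelled cells. Of granule cell markers 9 of 14 had a row and of Purkinje cell markers 0 of 14, against 7.54% of all protein-coding genes. Neurod1, Neurod2, Cbln3 and Barhl2 had promoter rows, and the other granule cell rows lay farther from the start, such as Etv1 at 533674 bp. The paper reports, from V5 immunofluorescence, that only Purkinje cells expressed the transgene. The part of cell type in the results below was not tested.

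Microtubules are polymers of alpha- and beta-tubulin that serve as tracks in axons and dendrites. Most kinesins walk toward the plus end of the microtubule and carry cargo out along the axon, whereas cytoplasmic dynein walks toward the minus end, together with dynactin and with adaptors of the BICD and Hook families that hold the cargo. A separate dynein and the kinesin-2 motors move material within cilia, and a further set of kinesins works in the mitotic spindle. Purkinje cells, the output neurons of the cerebellar cortex, depend on these tracks for a very large dendritic tree.

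Promoter peaks of the family are shown first as sequence, because they place the listed position within reach of the transcription start of a named motor or tubulin gene. All sequences are mm10, read 5′ to 3′ on the strand of the gene. Capitals mark CATCTG (the E-box preferred by NeuroD factors), CCGCCC (a GC box), CCAAT (an NF-Y box) or GTTGCCATG (an X-box of RFX factors), on either strand. In Tubb4a and Hook2 none of these letters lay within 100 bp of the position, and their sequences are shown for that reason. Stretches that an annotated noncoding exon covers are given as 30 bases, and those of Kif6 and Kifap3 end upstream of the listed base, which all others include.
Bicd1 (chr6:149408984-149409013, + strand): agttggagtccgCATCTGtgtgcactggct
Dync2li1 (chr17:84626379-84626474, + strand): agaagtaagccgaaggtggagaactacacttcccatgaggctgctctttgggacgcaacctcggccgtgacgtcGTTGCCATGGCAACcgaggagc
Kif6 (chr17:49615008-49615097, + strand): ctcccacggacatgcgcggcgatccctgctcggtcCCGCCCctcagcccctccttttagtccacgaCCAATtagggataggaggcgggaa
Kif1bp (chr10:62578515-62578544, - strand): agaacatcctcccATTGGctgctgccgagc
Dync1i2 (chr2:71211850-71211879, + strand): gtcacggagaggCCGCCCctctgcgctggg
Kifap3 (chr1:163779393-163779422, + strand): ggactttacgttCCAATtttgcagcttgca
Tuba1a (chr15:98953585-98953705, - strand): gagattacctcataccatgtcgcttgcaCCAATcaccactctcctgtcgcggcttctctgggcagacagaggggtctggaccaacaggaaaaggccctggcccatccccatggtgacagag
Tubb4a (chr17:57087699-57087819, - strand): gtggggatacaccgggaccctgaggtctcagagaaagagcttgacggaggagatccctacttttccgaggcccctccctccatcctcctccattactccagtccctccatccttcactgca
Hook2 (chr8:84990393-84990422, + strand): gatcttgaggaccactccactacataaaga

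Listed peaks were assigned to 18% of the family (18 of 100 genes, 11.7 to 26.7%), against 7.54% of all protein-coding genes (1641 of 21774). When the count was limited to peaks no farther than 5 kb from a start, 10 of 100 family genes had one, against 3.66% of all protein-coding genes (798 genes). At promoters, meaning 1 kb before to 100 bp after a start, 9 of 100 family genes had one, against 2.93% (637 genes). The family was thus above the background of all genes in each count. These shares are a description, since no test of the difference was run. A gene is counted through its single row, which need not hold its nearest peak, so the counts by distance depend on which peak was kept. Members lay on 10 chromosomes, all autosomes, and the 2 family genes on the X chromosome, Dynlt3 and Kif4, had no row.

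Each class of motor and track had listed genes. Kinesins and kinesin light chains had 10 of 48 genes listed (20.8%, 11.7 to 34.3%), a count that includes the associated proteins Kifap3 and Kif1bp. Tubulins had 3 of 23 (13%, 4.54 to 32.1%), dynein chains, light chains and dynactin together 3 of 22 (13.6%, 4.75 to 33.3%), and BICD and Hook adaptors 2 of 7 (28.6%, 8.22 to 64.1%). The share of all protein-coding genes was 7.54%. The intervals of tubulins and of the dynein and dynactin class include it, so these 2 counts show no difference from other genes. The intervals of kinesins and of BICD and Hook adaptors start above it, but no test was run. All of these intervals overlap one another, so an order among the classes could not be read from them.

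**Figure D1:**
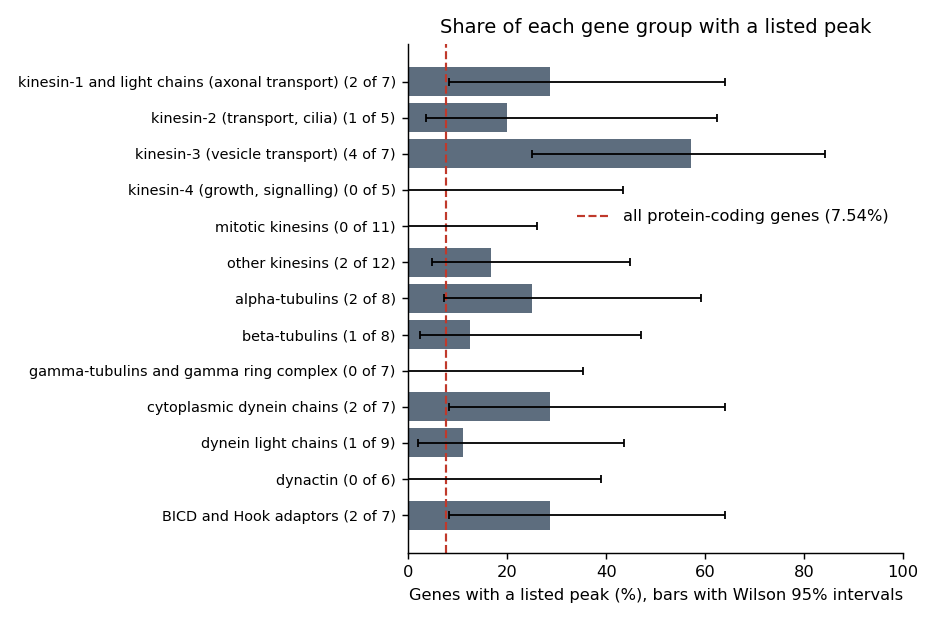
Share of genes with a listed peak in each of 13 groups of the family (horizontal bars, percent of the group's genes), with Wilson 95% intervals as whiskers and the share of all protein-coding genes (7.54%) as a dashed line. Kinesin-3 stands at 57.1%, with an interval that starts at 25%, whereas 4 groups have no listed gene.

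Among kinesins, the kinesin-3 group had the highest share (4 of 7 genes, 57.1%, 25 to 84.2%). This interval overlaps those of all other kinesin groups, so an order among them could not be read from it. Of kinesin-3, Kif13b, Kif14 and Kif1c were not listed, and Kif1a, Kif1b, Kif13a and Kif16b were. None of these 4 peaks was at a promoter. Kinesin-1, the main motor of fast axonal transport, had its heavy chains Kif5b and Kif5c listed, whereas the heavy chain Kif5a and the light chains Klc1, Klc2, Klc3 and Klc4 were not. Of kinesin-2, only the nonmotor subunit Kifap3 was listed, and the motor subunits Kif3a, Kif3b, Kif3c and Kif17 were not. None of the 5 kinesin-4 genes (0.0 to 43.4%) and none of the 11 mitotic kinesins (0.0 to 25.9%), such as Kif11 and Kif23, had a row. At a background of 7.54%, fewer than 1 gene would be listed in either group, so the absence of a row from them shows no difference from other genes.

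Tubulin genes with a row were the alpha-tubulins Tuba1a and Tuba4a and the beta-tubulin Tubb4a. The neuronal beta-tubulin Tubb3 and its relatives Tubb2a and Tubb2b were not listed, and neither was any of the 7 genes of gamma-tubulin and its ring complex (0.0 to 35.4%), which nucleate microtubules. Dynein genes with a row were Dync1i2, Dync2li1 and Dynlrb2. The heavy chains Dync1h1 and Dync2h1, which carry the motor itself, were not listed, and 0 of 6 dynactin genes were (0.0 to 39%). For the gamma-tubulin group and for dynactin, the interval includes the 7.54% of all protein-coding genes, so these absences show no difference from other genes. Of the adaptors, Bicd1 and Hook2 were listed and Bicd2, Bicdl1, Bicdl2, Hook1 and Hook3 were not.

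Listed positions fell into 9 at promoters, 7 in introns and 2 in intergenic sequence. The promoter share of members was 50.0% (29.0 to 71.0%), against 34.6% of the other 1914 rows on assembled chromosomes (662 rows). Introns held 38.9% of members (20.3 to 61.4%), against 32.6% of the other rows, and intergenic sequence 11.1% (3.1 to 32.8%), against 28.5%. The interval of members includes the share of the other rows in all 3 cases. The median absolute distance from the start was 475 bp for members and 10460 bp for the other rows, a contrast that follows the promoter share: within the promoter class the medians were 79 bp for members and 86 bp for the other rows, and outside it 40935 bp for members and 32788.5 bp for the other rows.

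**Figure D2:**
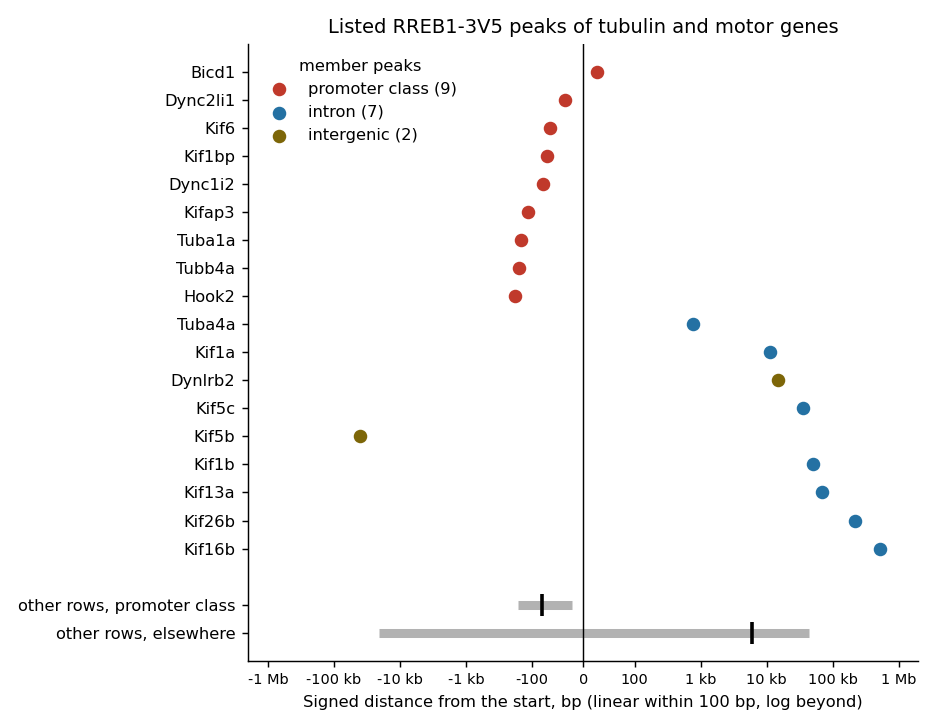
Signed distance in bp of each of the 18 listed positions from the assigned transcription start (horizontal axis, linear within 100 bp and logarithmic beyond, negative is upstream), 1 gene per line, coloured by region, with the median (tick) and quartiles (grey bar) of the other rows at the bottom. The 9 promoter peaks lie between -179 and 26 bp, and 8 of the other 9 lie more than 10 kb away.

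The 9 promoter peaks lay within 200 bp of the start, 8 of them upstream. The peak nearest to a start was that of Bicd1, an adaptor that joins dynein and dynactin to vesicles, at 26 bp past the start (chromosome 6, position 149409010). The Dync2li1 peak lay at -36 bp (chromosome 17, 84626439), and this gene encodes the light intermediate chain of the dynein that works in cilia. Kif6, a kinesin linked to motile cilia, had its peak at -64 bp (chromosome 17, 49615108). These 3 positions were the nearest to a start, with those of Kif1bp (-71 bp) and Dync1i2 (-79 bp) close behind. A link of the promoter peaks to cilia was not tested, and the kinesin-2 motor subunits and Dync2h1 had no row.

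The Kif1bp peak lay at -71 bp (chromosome 10, 62578528). The gene, now named Kifbp, encodes a protein that binds a subset of kinesins and keeps them off the microtubule. Dync1i2, an intermediate chain that holds the cytoplasmic dynein complex together, had its peak at -79 bp (chromosome 2, 71211867), and a further annotated start of the same gene puts that position 161 bp downstream. The Kifap3 peak lay at -114 bp (chromosome 1, 163779469). There the start of a noncoding RNA gene on the opposite strand, Gm51663, was nearer, with the position 71 bp past it, so the position is shared by a divergent pair.

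Tuba1a, the main alpha-tubulin of young neurons, had its peak at -144 bp (chromosome 15, 98953645). Its neighbour Tuba1b, 19.3 kb from this peak, had no row of its own, and neither did Tuba1c. Tubb4a, a beta-tubulin of the brain that is altered in a human leukodystrophy with cerebellar atrophy, had its peak at -159 bp (chromosome 17, 57087759). Hook2, a dynein adaptor of the centrosome, had its peak at -179 bp as listed (chromosome 8, 84990407). Measured from the curated starts of Hook2 in the annotation used here, the same position lay at -216 and 400 bp.

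Base composition varied among the promoter peaks. Over 200 bp centred on the position, the promoter peaks of members had a median of 58.5% G and C (53.0 to 65.0%), against 61.0% in the other promoter rows, and a median of 10.0 CG dinucleotides, against 14. The ratio of observed to expected CG dinucleotides had a median of 0.522 in members and of 0.766 in the other promoter rows. Dync1i2 had the most CG dinucleotides of the 18 (20, ratio 1.04), followed by Kif1bp (17) and Kif6 (15). Kifap3 (6), Tuba1a (7), Hook2 (7) and Tubb4a (8) had the fewest among promoter peaks. The ratio at promoter peaks ran from 0.417 in Tuba1a and 0.445 in Tubb4a to 1.04 in Dync1i2. No limit between CpG-rich and CpG-poor sequence was set.

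**Figure D3:**
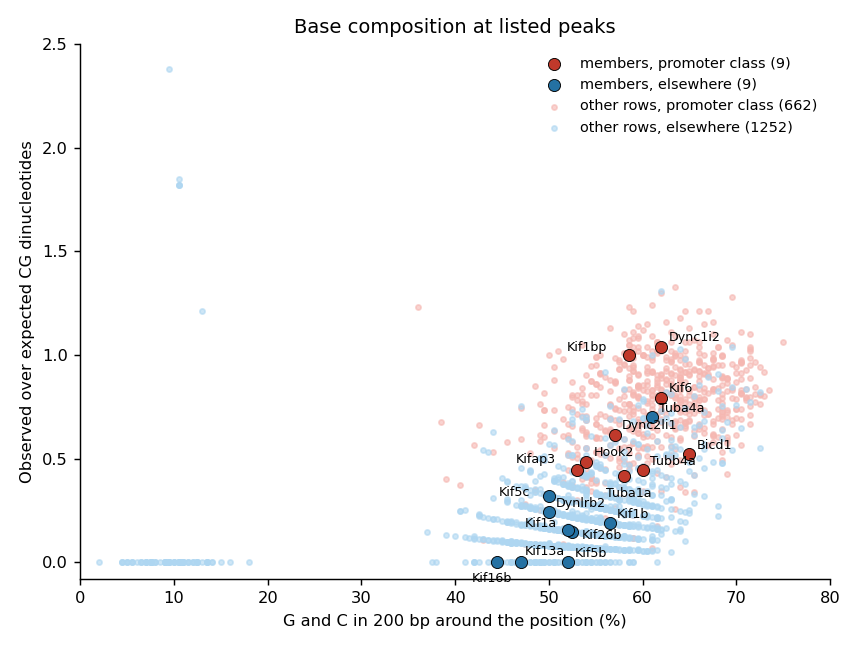
Percent G and C (horizontal axis) and observed over expected CG dinucleotides (vertical axis) in 200 bp around each listed position, with members as large named points and the other rows as small points, red for the promoter class and blue elsewhere. Dync1i2 and Kif1bp stand at ratios near those of many other promoters, Tuba1a and Tubb4a lower, and the cluster of 91 other rows under 20% G and C holds no member.

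Of the 9 peaks outside the promoter class, the one in Tuba4a was the nearest to a start, at 771 bp in intron 1 of 3 (chromosome 1, 75218523). Tuba4a encodes an alpha-tubulin made without the terminal tyrosine. Its 200 bp window held 61.0% G and C and 12 CG dinucleotides (ratio 0.699), within the range of the promoter peaks. The other 8 positions lay more than 10 kb from the assigned start, and they had 0 to 4 CG dinucleotides. The 9 peaks together had a median of 52.0% G and C, against 53.5% in the other rows outside promoters.

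In the kinesin-3 genes, the Kif1a peak lay 11425 bp past the assigned start, in intron 10 of 48 (chromosome 1, 93071055). Kif1a carries synaptic vesicle precursors along the axon, and from its outermost annotated start the position is at 30819 bp. The Kif1b peak was 50998 bp past its assigned start, in intron 13 of 20 (chromosome 4, 149256700), and Kif1b carries mitochondria and vesicle precursors. The Kif13a peak was 69697 bp past its assigned start, in intron 3 of 37 (chromosome 13, 46860021), and Kif13a moves recycling endosomes. The row of Kif16b, a motor of early endosomes, was of another kind. It lay 520738 bp from the Kif16b start and 237614 bp beyond the end of that gene, in intron 17 of 18 of Macrod2 (chromosome 2, 142380726), so 3 kinesin-3 genes, not 4, held the listed position within the gene.

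The kinesin-1 genes had distant positions as well. Kif5c had its row at 35414 bp, in intron 1 of 25 (chromosome 2, 49654700), and Kif5b at -40935 bp in intergenic sequence (chromosome 18, 6282459). Kif5c was the family gene with a second listed peak within its bounds. That position (chromosome 2, 49745630) lay in intron 21 of 25, 126 kb from the Kif5c start, and was assigned in the table to Lypd6b, whose start is nearer, at a signed distance of -42056 bp from that start. It also lies in an exon of a predicted noncoding gene on the opposite strand.

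The remaining 2 members away from promoters were Kif26b and Dynlrb2. Kif26b, an atypical kinesin without motor activity, had its row at 218581 bp in intron 4 of 14 (chromosome 1, 178747706), the longest distance of a position that still lay within its own gene. Dynlrb2, a light chain of the roadblock type, had its row at 14844 bp, which is 3944 bp beyond the end of the gene (chromosome 8, 116519859). In all, 12 of the 18 positions lay within the bounds of the assigned gene. These bounds are those of the whole annotated gene, which can begin before the assigned start. The promoter positions of Kif6, Kif1bp, Dync1i2, Kifap3 and Hook2 were thus upstream of the assigned start and within the bounds.

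Gene length differed between the kinds of members. Members with a row away from promoters had a median length of 131 kb (6.29 to 404 kb), members with a promoter peak 29.1 kb (3.65 to 295 kb), and the 82 family genes without a row 24.2 kb (2.27 to 302 kb), against 17.2 kb for all protein-coding genes. The part of gene length in the listed share was not tested. None of the 82 unlisted genes held a listed peak within its bounds, and 10 of them had one within 50 kb. These were Bicdl2, Kifc1, Tuba1b, Dctn2, Kif5a, Kif22, Tubb4b, Kif17, Tubgcp2 and Tuba1c, and the nearest of these peaks was 13 kb from Bicdl2. The median over the 82 genes was 264 kb.

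Sequence near the listed positions was searched on both strands in the 200 bp window for 13 short runs of letters. A match is a description of the sequence and not a site. The E-box CATCTG was near 5 of 18 members (27.8%, 12.5 to 50.9%), against 35.2% of the other rows and 11.7% of RefSeq promoters over the same length (150 bases before a start to 50 after). It was near 2 of 9 promoter members, against 8.61% of the other promoter rows, and near 3 of 9 members elsewhere, against 49.2% of the other rows outside promoters. The interval of all members includes the share of the other rows.

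The 5 members with CATCTG are shown with 12 bases on either side, because this E-box was near 49.2% of the other rows away from promoters. The strand is that on which the letters read CATCTG, and capitals mark them.
Bicd1 (chr6:149408984-149409013, + strand): agttggagtccgCATCTGtgtgcactggct
Dync2li1 (chr17:84626333-84626362, + strand): tgctcaccatatCATCTGgcatcctagggc
Kif1a (chr1:93071026-93071055, + strand): agttcctgccacCATCTGtcctctgtcaca
Dynlrb2 (chr8:116519871-116519900, - strand): gtgaccacactcCATCTGttcaggtctctg
Kif26b (chr1:178747684-178747713, - strand): aaattcagtcacCATCTGcttgttcttcca

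In 4 of these 5 the letters lay within 50 bp of the listed position, at -7.5 bp in Kif26b, -11.5 bp in Bicd1, 14.5 bp in Kif1a and 26.5 bp in Dynlrb2, measured along the gene from the centre of the letters. In Dync2li1 they lay at -91.5 bp. The 3 distal members, Kif1a, Dynlrb2 and Kif26b, had a C before the E-box, which gives CCATCTG, whereas the promoter members Bicd1 and Dync2li1 did not. CCATCTG was near 3 of 18 members (16.7%), against 28.5% of the other rows, and near 3 of 9 members outside promoters, against 41.4% of the other rows outside promoters.

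Positions in Kif1b and Kif13a had no CATCTG within 100 bp but did have another E-box (CANNTG, where N is any base) next to the listed base, and the Kif5c peak assigned to Lypd6b had 3 copies of CATCTG, at -55, -41 and 46 bp. These 3 were chosen for display after their values were seen. They are given on the strand of the gene, with CANNTG in capitals in Kif1b and Kif13a and with CATCTG, on either strand, in Kif5c.
Kif1b (chr4:149256675-149256725, - strand): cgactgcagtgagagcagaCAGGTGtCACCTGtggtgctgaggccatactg
Kif13a (chr13:46859996-46860046, - strand): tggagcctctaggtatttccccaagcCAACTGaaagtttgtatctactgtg
Kif5c (chr2:49745567-49745596, + strand): gtaggCAGATGgctactccCATCTGgagcc

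In Kif1b the paired E-boxes CAGGTG and CACCTG flanked the listed position at -3.5 and 3.5 bp, and in Kif13a CAACTG was at 3.5 bp. CANNTG as a whole was common, with a match near 13 of 18 members (72.2%), against 71.2% of the other rows and 57.7% of RefSeq promoters. CAGCTG was near 1 member, Tuba4a, against 11.6% of the other rows. With the window widened to 400 bp, Tuba4a gained 1 copy of CCATCTG and Kif13a gained 2.

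**Figure D4:**
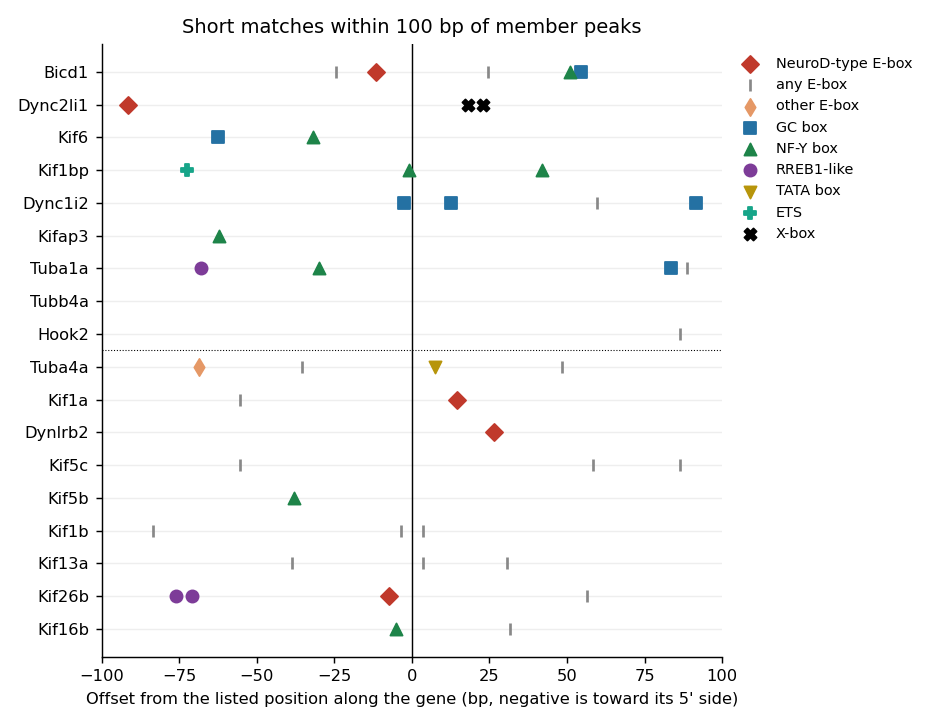
Offset in bp of short matches from the listed position (horizontal axis, along the gene, negative toward its 5′ side) in the 18 members, 1 gene per line, with promoter members above the dotted line and the others below. Symbols mark the kinds of match named in the legend: NF-Y and GC boxes lie mostly above the line, and Kif26b, Kif1a and Dynlrb2 carry the NeuroD-type E-box within 50 bp of 0.

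Letters resembling the RREB1 motif, CCACCCC, were near Tuba1a and Kif26b (2 of 18 members, 11.1%), against 7.58% of the other rows and 11.0% of RefSeq promoters. In Tuba1a they were at -68.0 bp from the listed position, and in Kif26b 2 overlapping copies were at -76.0 and -71.0 bp. A longer run of letters, CCCAAACC, was near 0 of 18 members, against 0.888% of the other rows. The CCACCCC interval of members (3.1 to 32.8%) includes the share of the other rows and that of RefSeq promoters, although 9 of the 18 members lay outside promoters.

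CCAAT, the sequence bound by NF-Y, was near 7 of 18 members (38.9%), against 29.9% of the other rows. Among promoter members it was near 5 of 9, namely Bicd1, Kif6, Kif1bp, Kifap3 and Tuba1a, against 39.9% of the other promoter rows. In Kif1bp 1 of its 2 copies lay at -1.0 bp, on the listed position itself. CCGCCC, the GC box of the SP family, was near 4 of 9 promoter members, Bicd1, Kif6, Dync1i2 and Tuba1a, and near 0 of 9 others, against 51.1% of the other promoter rows and 7.91% of the other rows elsewhere. Dync1i2 had 3 copies, at -2.5, 12.5 and 91.5 bp.

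The Dync2li1 promoter held GTTGCCATG on both strands, overlapping as the palindrome shown in capitals above, at 18 and 23 bp from the listed position and upstream of the start. This run of letters, known as the X-box of RFX factors that control cilium genes, was added after the sequence had been seen. It was near 1 of 18 members, against 1.57% of the other rows and 0.664% of RefSeq promoters. TATAAA was near 1 of 18 members, Tuba4a, against 6.69% of the other rows. CGGAAG, the core of ETS sites, was near 1 of 9 promoter members, Kif1bp, against 30.4% of the other promoter rows. TGACGTCA and ATTTGCAT were near 0 of 18 members, against 0.993% and 0.522% of the other rows.

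The same letters were counted in the RefSeq promoter sequences (GRCm38, 250 bases before a start to 50 after) of family genes, irrespective of the peak. CATCTG was in 1 of 8 promoter-class members with a sequence, in 1 of 8 other members and in 6 of 60 unlisted genes, against 17.2% of all promoters. CCAAT was in 4 of 8, 2 of 8 and 31 of 60 of these groups, against 37.4%. CCGCCC was in 5 of 8, 7 of 8 and 36 of 60, against 35.7%, so the GC box was common across the family's promoters whether or not the gene was listed. The units differ: the family counts are of genes, some with more than a single promoter sequence. The shares of all promoters are of 32851 sequences.

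Further genes that work with tracks and motors were counted in 3 lists of other names. Of 31 motor regulators and cargo adaptors 2 had a row (6.45%), Fez2 at 12642 bp and Sybu at -10861 bp, both in introns. Of 33 genes for tubulin folding, modification and severing 3 had a row (9.09%), Tbce at 267 bp in an intron, Tbcb at 14362 bp and Vash1 at 21338 bp. Of 20 axonemal dyneins 1 had a row (5.0%), Dnah11 at 94344 bp. These shares stand beside 7.54% of all protein-coding genes. The 3 lists do not cover all such genes: structural microtubule-associated proteins and stathmins were not in them, and of these Map1a (31 bp), Map9 (-19 bp) and Stmn4 (68 bp), named after their values were seen, had promoter rows. The lists therefore do not show that the share of the family is particular to it.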

How the data were processed

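RREB1-3V5 ChIP-seq was made from cerebella of 2 biological replicates, with 2 Input libraries, and all 4 libraries entered through the peak table alone. For this table the authors used fastp for trimming, Bowtie2 for alignment to mm10, Sambamba to drop duplicates and multimapping reads, MACS3 (q-value limit 0.05) for peaks, and bedtools to merge peaks that overlap. Per the file header, HOMER annotatePeaks gave the region and gene. Their versions, not given in the sources used here, are unknown. The deposited positions and distances are in bp, and 1911 of 1933 are 1 bp wide. A peak seen in 1 replicate cannot be told from one seen in both.

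Members were matched to the GRCm38 RefSeq annotation by Entrez number (18 of 18). Every member was named, and unlisted genes by group. Windows of 200 bp (100 and 400 bp as alternatives) were read from that genome with pysam 0.24.0. Promoter sequences were credited to RefSeq (GRCm38). Shares and Wilson intervals were computed with Python 3.11.15, pandas 2.3.3 and statsmodels 0.14.6, and the search was tested on simulated data. No statistical test was run (0 tests). Members and lists were chosen with earlier results of these data known. A row on an unplaced scaffold entered neither windows nor region shares.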

Additional observations from a re-analysis of the deposited data

How the results depend on the processing

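Of 20 alternatives, 15 moved the value by less than its error and 5 moved it further. The share of family genes with a listed peak was 18%, and it was 10.0% with only peaks within 5 kb and 9.0% with only promoter peaks. Both remained above the shares of all genes counted in the same way. With each peak given to the nearest start of any gene it was 17%, since Kifap3 passed to Gm51663. The E-box share was 27.8% for CATCTG and 72.2% for CANNTG. The share with CCACCCC was 11.1% in the window of 200 bp, 0.0% in that of 100 bp and 27.8% in that of 400 bp, and CCCAAACC gave 0.0%. The promoter share stayed at 50.0%. No paired analysis was possible because the merged table holds no value of a single library, and leaving out a replicate was not run for the same reason. Depth and peak height, which would rank the 18 positions, were not analysed here, and 8 members have a neighbouring peak number without a row.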
